A study of Mus musculus with 18 samples.

Results

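Cells that received the retinoid receptor antagonist AGN193109 together with all-trans retinoic acid (tRA) were compared with cells that received vehicle, on 6 of the 18 arrays of the study. The members are the 3 arrays titled AGN193109+tRA and the 3 vehicle arrays of the same experiment, matched by the number of the biological replicate. mIMCD-3 is an established line of mouse inner medullary collecting duct epithelium, the last tubule segment of the kidney. All groups were exposed for 24 h. The vehicle was 0.1% ethanol with 0.1% DMSO, the treated cells had 1 μM AGN193109 and 0.2 μM tRA, and 3 further arrays of the same experiment held cells with 1 μM AGN193109 alone. A second experiment with its own 3 vehicle arrays used 25 μM DEAB, which inhibits the aldehyde dehydrogenases that make tRA, or 25 μM DEAB with 0.01 μM tRA. No group received tRA without an inhibitor in either experiment, the culture medium held fetal calf serum, and every array came from 1 cell line. The question addressed is what remained different from vehicle when antagonist and tRA were given together.

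tRA is made from retinol in 2 oxidation steps and acts through retinoic acid receptors (RARs), which sit with retinoid X receptors on response elements of their target genes. Without ligand, or with an antagonist in the pocket, these receptors hold corepressors, and tRA replaces them with coactivators. AGN193109 binds all RARs and competes with tRA for them. Well-known targets include Dhrs3, which reduces retinaldehyde back to retinol, Stra6, which carries retinol into cells, Rarb and the tRA-degrading enzyme Cyp26a1. In the collecting duct lineage, retinoic acid signaling is best known for its part in branching of the ureteric bud.

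The response element is built of half-sites, searched here as AGGTCA or GGGTCA and as AGTTCA or GGTTCA on both strands, alone or as direct repeats spaced by 1, 2 or 5 bases. RefSeq start-site windows (GRCm38.p6) were found for 6 of 7 genes looked up. The 250 bases before an annotated start are shown for 4 genes on which the results turn, 5′ to 3′ on the gene's strand, with half-sites in capitals.
Tns1, chr1:74124549-74124798, minus strand: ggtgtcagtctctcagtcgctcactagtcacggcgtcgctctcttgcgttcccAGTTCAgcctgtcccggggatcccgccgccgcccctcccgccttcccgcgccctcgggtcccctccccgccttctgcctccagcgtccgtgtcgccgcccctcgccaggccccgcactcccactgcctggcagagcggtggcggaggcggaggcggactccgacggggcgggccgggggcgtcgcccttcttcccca
Muc20, chr16:32797436-32797685, minus strand: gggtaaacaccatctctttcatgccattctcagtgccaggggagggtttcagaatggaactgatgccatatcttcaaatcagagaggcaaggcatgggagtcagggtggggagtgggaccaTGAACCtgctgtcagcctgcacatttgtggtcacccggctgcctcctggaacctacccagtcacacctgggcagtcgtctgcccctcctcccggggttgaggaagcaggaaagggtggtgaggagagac
Cpm, chr10:117629250-117629499, plus strand: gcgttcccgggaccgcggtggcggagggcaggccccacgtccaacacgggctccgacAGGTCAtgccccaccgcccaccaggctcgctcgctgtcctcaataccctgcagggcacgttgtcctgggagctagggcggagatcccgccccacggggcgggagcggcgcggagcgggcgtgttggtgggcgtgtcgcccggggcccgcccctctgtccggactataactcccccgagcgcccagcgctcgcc
Dhrs3, chr4:144892577-144892826, plus strand: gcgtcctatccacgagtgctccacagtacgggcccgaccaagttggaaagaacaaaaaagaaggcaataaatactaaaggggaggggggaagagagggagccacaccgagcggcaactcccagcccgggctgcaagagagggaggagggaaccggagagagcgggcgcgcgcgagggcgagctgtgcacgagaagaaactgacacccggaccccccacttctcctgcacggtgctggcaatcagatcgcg
Counted from the annotated start, the half-site of Tns1 began at −197, that of Cpm at −193, and Muc20 held the reverse complement TGAACC at −129. Klhdc7a held TGACCC at −102. Dhrs3 had none of the half-sites in any of its 3 annotated windows, nor had Stra6 in its 4. The annotated extent of Dhrs3 begins at 144892534 and that of Stra6 at 58063793, before the first window of each. The bases before those positions were not searched. Of all 32851 windows of this length, 38.6% held at least 1 half-site, so single half-sites were common. Direct repeats were in 0.164% (spacing 1), 0.174% (spacing 2) and 0.0883% (spacing 5) of the windows, and in none of the windows of these 6 genes. Bases outside the windows were not searched, so whether these genes hold direct repeats elsewhere was not tested. From a published catalogue of the whole genome, the study of these samples reported direct repeats spaced by 5 bases in many of its target genes.

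The labelled cell type was checked against markers. Of the epithelial genes, Krt8 had a mean log2 level of 13.57 with vehicle, Krt18 13.23, Cdh1 12.25 and Epcam 11.19. Of the genes that define principal cells, the water channel Aqp2 stood at 7.79, Aqp3 at 6.92 and the vasopressin receptor Avpr2 at 6.47, where the 30th percentile of all clusters, below which a cluster is called dim here, was 6.48. Levels of different probes are not on a common scale, so no order among these genes is read from them. With AGN193109+tRA these levels were 13.61, 13.27, 12.22, 11.25, 7.94, 6.91 and 6.48, and none of the 12 epithelial markers had an unadjusted p under 0.05. The 15 principal cell markers measured had vehicle levels from 5.40 to 12.45. At that p 2 of them were lower, among them Scnn1a, a sodium channel subunit, at −0.18, and 0 were higher. Of 20 markers of podocytes, endothelium, fibroblasts and leukocytes, 1 lay lower at that level (Synpo, a podocyte actin-binding protein, at −0.43) and 10 lay above vehicle. The 6 arrays correlated at 0.994 to 0.998 over all clusters, with medians of 7.87 to 7.92, and none stood apart.

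After 24 h of antagonist and tRA together, few genes could be told from vehicle when all clusters were tested together, and most of the clearest differences pointed down. Among 23410 transcript clusters with a gene symbol, 1 was lower (0.00427%) and 0 were higher at an adjusted p under 0.05, by limma with the replicate number as a block and Benjamini-Hochberg adjustment. The cluster that fell belonged to Tns1. At an unadjusted p under 0.05 there were 717 clusters lower (3.06%) and 464 higher (1.98%), 5.04% together. That excess of lower clusters rested on replicate 1: without it 337 were lower and 408 higher, and without its vehicle array alone 343 were lower and 440 higher. Clusters with 1 gene symbol and a level above the 30th percentile were counted further. Those that moved 1 way in every replicate, with no overlap and an unadjusted p under 0.01, numbered 65 lower and 14 higher. The standard error of a difference had a median of 0.0849 on the log2 scale, so that the 95% interval of a typical cluster reached 0.196 to each side. Without the replicate block 0 clusters were called, and 418 had an unadjusted p under 0.05. With all 18 arrays in 1 fit, which estimates the spread from both experiments, 57 clusters of 52 genes were lower and 6 were higher, and Dhrs3 was not among them (adjusted p = 0.0853). Against AGN193109 alone, 18 clusters were higher (0.0769%) and 1 was lower once tRA had been added. The 87 clusters (0.372%) called lower and 20 (0.0854%) called higher with AGN193109 alone against these vehicle arrays stood, after tRA was added, at a median of 59.1% and 64.3% of the way back to vehicle. The vehicle and antagonist arrays enter that percentage as well as the choice of the clusters, so it is a description only.

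Dhrs3 had the largest difference of all clusters, but its arrays spread widely. Its log2 levels were 10.68, 8.97 and 10.91 with vehicle in replicates 1, 2 and 3, and 9.07, 7.41 and 8.33 with AGN193109+tRA. Each treated array lay below the vehicle array of its replicate, but replicate 1 with treatment was above replicate 2 with vehicle, so the groups overlapped. The difference was −1.92 (SE 0.36, 95% interval −2.74 to −1.10), which is 3.78 times less signal, and it did not pass (limma, adjusted p = 0.290). With AGN193109 alone the levels were 6.94, 7.07 and 7.24, a difference from vehicle of −3.10 (limma, adjusted p = 0.0110). The part of that loss recovered with 0.2 μM tRA was 38.2%, and the step from antagonist to antagonist with tRA was +1.19 (SE 0.36; limma, adjusted p = 0.667). By RT-qPCR on the RNA used for these arrays, the study reported Dhrs3 significantly higher with tRA added than with AGN193109 alone. It was still significantly below vehicle there. In these bulk cultures, fewer expressing cells and less RNA per cell cannot be told apart.

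Muc20, a membrane mucin of kidney and other epithelia, had a smaller recovered part, a contrast between genes that was not tested. Vehicle arrays read 9.25, 8.45 and 9.62 on the log2 scale, and AGN193109+tRA arrays read 8.13, 7.74 and 8.79. Replicate 2 was lowest in both groups, and within each replicate the treated array was lower, by 1.12, 0.71 and 0.82. The difference of −0.88 (SE 0.10, interval −1.11 to −0.66) corresponds to 1.84 times less signal and missed the threshold with the replicate block (limma, adjusted p = 0.0779). It passed when all 18 arrays shared 1 fit (adjusted p = 0.00405) and was at 1 without the block. With AGN193109 alone Muc20 read 7.91, 7.5 and 8.71, so that 16.8% of the loss was recovered. The step from antagonist to antagonist with tRA was +0.18 (SE 0.10; limma, adjusted p = 0.999).

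**Figure D1:**
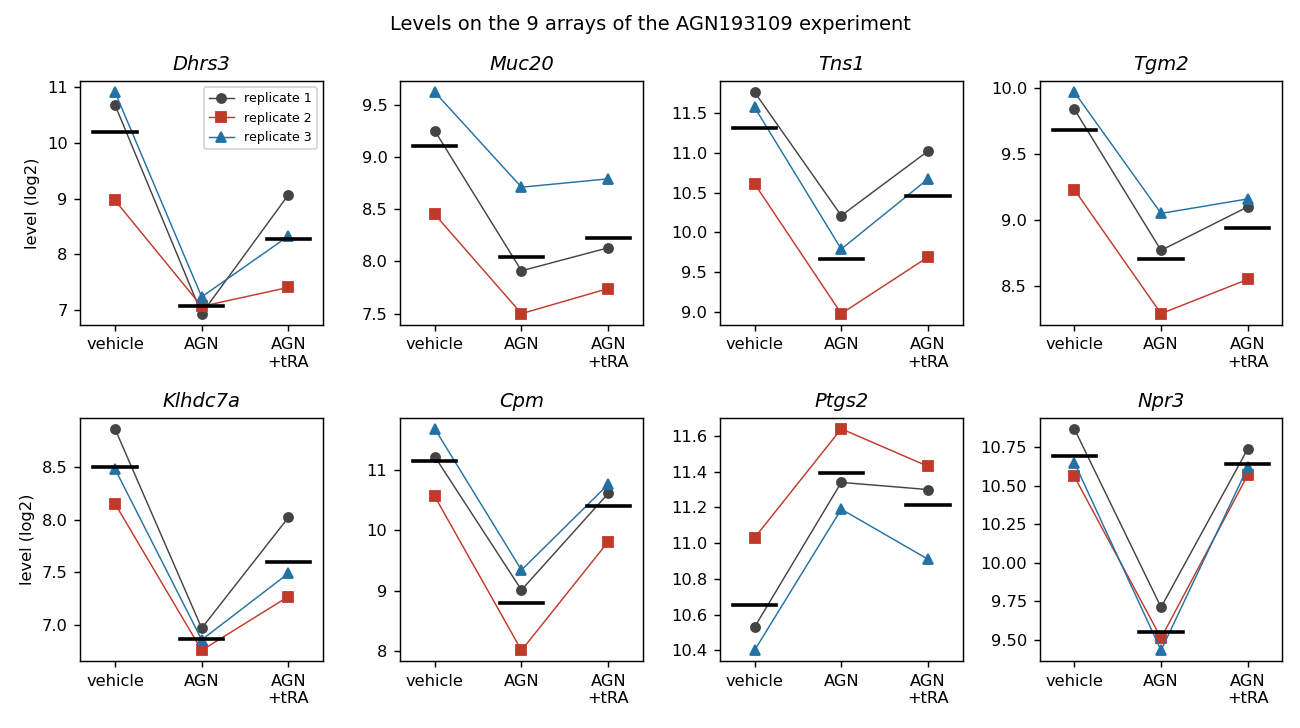
Log2 level of 8 genes on the 9 arrays of the AGN193109 experiment; each panel has its own axis, points are single arrays, thin lines join the arrays of a biological replicate, and thick bars are the means of 3. In Dhrs3, Muc20, Tns1, Tgm2, Klhdc7a and Cpm all 3 replicates with AGN193109+tRA lie below their own vehicle array, in Ptgs2 all 3 lie above it, and Npr3 is back at the vehicle level.

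Tns1, which encodes tensin 1, a linker between integrins and the actin skeleton, was measured by 6 transcript clusters. In the cluster that was called (10355536), vehicle arrays read 11.76, 10.61 and 11.57 and AGN193109+tRA arrays 11.02, 9.69 and 10.67. The groups overlapped because replicate 2 was low throughout, while the differences within replicates were close to each other. The mean difference was −0.85 (SE 0.07, interval −1.02 to −0.69; limma, adjusted p = 0.0494). That call is thin. Its adjusted p ranged from 5.54e-05 with all 18 arrays to 1 without the block, and it was over 0.05 whenever any 1 of the 6 arrays compared was left out (0.128 to 0.444). The other low clusters had differences of −0.94, −0.86, −0.72 and −0.69, and the last cluster (10355528) had +0.08. With the antagonist alone the 5 low clusters lay between −1.16 and −1.69, and the remaining cluster at +0.09. Clusters of a gene share their RNA and are not replicates of it.

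Tgm2, transglutaminase 2, an enzyme that cross-links proteins and a long-known retinoic acid target, came next by p. Its levels were 9.84, 9.23 and 9.97 with vehicle and 9.10, 8.55 and 9.16 with AGN193109+tRA. Every treated array was below every vehicle array. The difference of −0.75 (SE 0.07, interval −0.91 to −0.59) had an adjusted p of 0.0525 by limma. AGN193109 alone gave −0.98, and 23.8% of it was recovered, by a step of +0.23 (SE 0.07; limma, adjusted p = 0.664).

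Further genes were named for the largest differences among clusters with 1 gene symbol. These had no overlap of the 6 arrays, an unadjusted p under 0.01 and a level above the 30th percentile. No overlap in this direction was seen in 568 clusters (2.43%). Csn3, kappa-casein, read 6.87, 7.79 and 6.94 with vehicle and 6.21, 6.52 and 6.06 with AGN193109+tRA, a difference of −0.93 (SE 0.16). Its treated mean of 6.26 lay below the dim level of 6.48, which Csn3 passed through its vehicle arrays, so the size of its difference is uncertain. The RT-qPCR of the study did not amplify Csn3, and the study left it for further investigation. Klhdc7a, a kelch-domain protein, read 8.86, 8.15 and 8.48 against 8.02, 7.27 and 7.49, a difference of −0.90 (SE 0.11). In both genes the highest treated array was below the lowest vehicle array. Plekhs1, a pleckstrin-homology protein, followed at −0.67 (SE 0.10), Mab21l4 at −0.66 (SE 0.09), Galns, a lysosomal sulfatase, at −0.63 (SE 0.09), and Ppbp, a platelet-type CXC chemokine, at −0.61 (SE 0.16). Mknk2, a kinase downstream of MAP kinases, had −0.58 (SE 0.07). The adjusted p of these 7 genes lay between 0.108 and 0.630 in limma, so that none of them passed with 9 arrays. All but Ppbp did so with 18.

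The recovered part ranged widely among these genes, and its differences between genes were not tested. Ppbp stood at −3.25 with AGN193109 alone and at −0.61 with tRA added, 81.1% of the way back. Plekhs1 went from −2.12 to −0.67 (68.3%) and Klhdc7a from −1.63 to −0.90 (44.7%). Mknk2 went from −0.71 to −0.58 only (18.1%). Gbp9, a guanylate-binding GTPase, was at −0.52 in both treated groups. Its vehicle arrays read 8.98, 9.15 and 8.69, its antagonist arrays 8.47, 8.61 and 8.17, and its AGN193109+tRA arrays 8.62, 8.57 and 8.06. The ranges of both treated groups overlapped, with a step of −0.0037 (SE 0.0757) from the antagonist alone to the antagonist with tRA. Gbp8, a close paralog that may share probes, lay at −0.61 (SE 0.15). Cpm, carboxypeptidase M, whose arrays overlapped by replicate 2, had 11.22, 10.56 and 11.68 with vehicle and 10.61, 9.81 and 10.76 with AGN193109+tRA. Each pair differed by 0.61 or more, and the mean by −0.76 (SE 0.09; limma, adjusted p = 0.108), against −2.36 with the antagonist alone. Upk3b, a uroplakin of urothelial membranes, differed by −0.58 (SE 0.07) and Sorcs2, a sorting receptor, by −0.55 (SE 0.08).

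**Figure D2:**
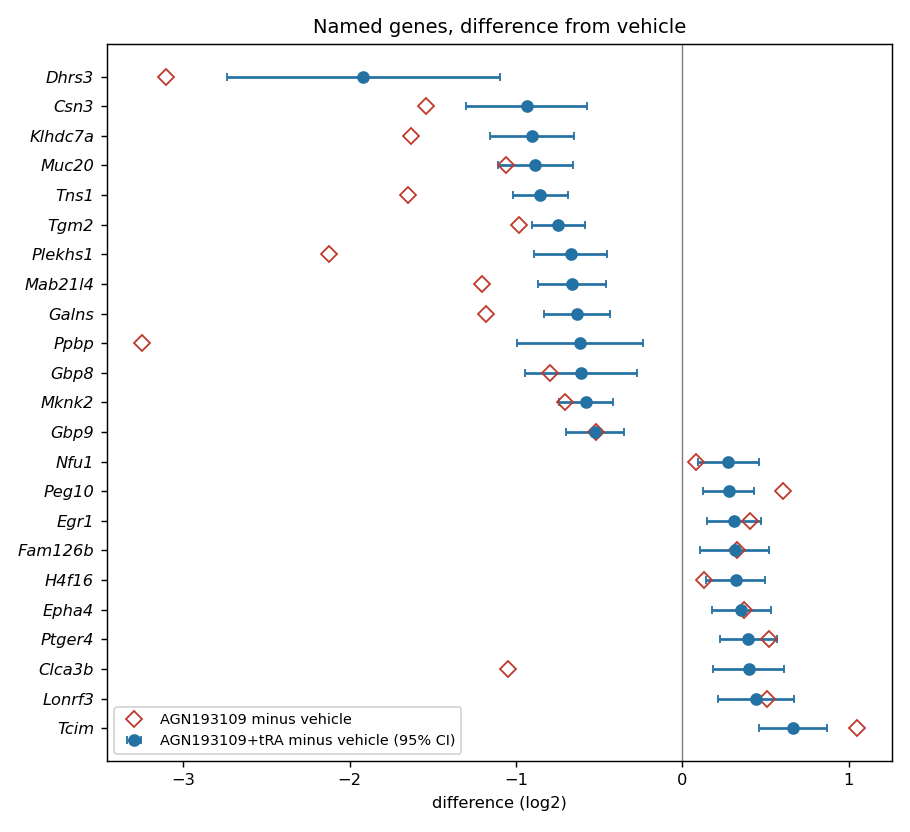
Difference from vehicle on the log2 scale for the genes with the largest non-overlapping differences, with Dhrs3, Muc20 and Tns1; filled circles with bars are AGN193109+tRA with its 95% interval (3 arrays a group) and open diamonds are AGN193109 alone. Diamonds lie to the left of the circles in the upper genes except at Gbp9, where the marks coincide at −0.52; Clca3b has its diamond at −1.05 and its circle at 0.40.

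For other genes most of the difference seen with the antagonist alone was gone, to a different extent in each. Npr3, the clearance receptor for natriuretic peptides, read 10.87, 10.56 and 10.65 with vehicle, 9.71, 9.51 and 9.43 with AGN193109 and 10.74, 10.57 and 10.62 with AGN193109+tRA. Antagonist arrays were the lowest by far and the other 6 were interleaved. The remaining difference was −0.05 with a 95% interval of −0.20 to 0.11, and the step made by tRA was +1.10 (limma, adjusted p = 0.00145). For Itga2, the alpha chain of a collagen-binding integrin, the interval was wider, −0.45 to 0.01 around −0.22, after −1.69 with the antagonist alone. Sprr1a, a cornified envelope precursor, was at −0.46 (interval −0.94 to 0.01) after −2.78. Lcn2, a secreted siderophore-binding protein, was at −0.36 (interval −0.55 to −0.16) after −1.31, each treated array below every vehicle array. Anxa8, an annexin raised by the antagonist alone to +0.79 (adjusted p = 0.0395), was at −0.14 (interval −0.42 to 0.14).

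Fewer genes showed differences of this kind above vehicle, and none passed. No overlap in this direction was found for 339 clusters (1.45%). Those with 1 gene symbol, a level above the 30th percentile and an unadjusted p under 0.01 were ranked. Tcim, a small regulator of Wnt signaling, had the largest difference. It read 9.25, 9.84 and 9.54 with vehicle and 9.91, 10.38 and 10.33 with AGN193109+tRA, +0.66 (SE 0.09; limma, adjusted p = 0.130), and +1.05 with AGN193109 alone. Ptgs2, the inducible cyclooxygenase of prostaglandin synthesis, read 10.53, 11.03 and 10.40 against 11.30, 11.43 and 10.91, higher within each replicate although the lowest treated array was below the highest vehicle array. Its difference was +0.56 (SE 0.08; limma, adjusted p = 0.173), with +0.74 under the antagonist alone. Ptger4, a receptor for the prostaglandin that this pathway makes, had +0.40 (SE 0.07).

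In Clca3b the treated groups lay on opposite sides of vehicle. This calcium-activated chloride channel regulator read 8.37, 8.42 and 8.77 with vehicle, 7.42, 7.29 and 7.70 with AGN193109 and 8.94, 8.87 and 8.93 with AGN193109+tRA. The 3 groups did not overlap. The difference from vehicle was +0.40 (SE 0.09, interval 0.19 to 0.61; limma, adjusted p = 0.476), and the step from antagonist to antagonist with tRA was +1.45. Further genes named by the same rule were Lonrf3 at +0.44 (SE 0.10), Epha4, an ephrin receptor, at +0.35 (SE 0.08), the histone gene H4f16 at +0.32 (SE 0.08), Fam126b at +0.31 (SE 0.09), Egr1, an immediate early transcription factor, at +0.31 (SE 0.07), Peg10 at +0.28 (SE 0.07) and Nfu1, an iron-sulfur cluster protein, at +0.28 (SE 0.08).

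The largest positive difference of any cluster was that of H1f1, a linker histone, picked out after its values were seen. Its arrays read 10.55, 10.45 and 12.20 with vehicle and 12.09, 11.78 and 12.47 with AGN193109+tRA. Replicate 3 was high in both groups, and the mean difference of +1.05 (SE 0.27; limma, adjusted p = 0.577) rested on replicates 1 and 2.

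A second choice of genes was made on the DEAB experiment, which shares no array with the 6 compared here. There, 66 clusters of 62 genes were lower with DEAB than with vehicle (limma, adjusted p under 0.05). With AGN193109+tRA, 63 of these 66 lay below vehicle and 43 (65.2%) were lower at an unadjusted p under 0.05, against 3.06% of all clusters, and 1 of them passed the adjusted test. Their median difference was −0.30, beside 0.00 for all clusters. In replicates 1, 2 and 3 taken singly the median was −0.33, −0.29 and −0.36. Under AGN193109 alone, against the same vehicle arrays, the median of the 66 was −0.79, and the median step made by tRA was +0.48. With DEAB and 0.01 μM tRA, against that experiment's own vehicle, it was +0.15. Above the antagonist and below the vehicle level lay 62 of the 66, and 3375 of all 23410 clusters. The same vehicle arrays enter both comparisons, so these counts are a description only.

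Wider sets from the DEAB arrays had smaller medians. Of 184 clusters that were higher with DEAB+tRA than with DEAB, 150 lay below vehicle here, 79 of them (42.9%) were lower and 5 higher at an unadjusted p under 0.05, and the median was −0.17. The 167 clusters lower with DEAB+tRA than with DEAB had a median of −0.04, with 15 lower and 8 higher. Only 5 clusters were higher with DEAB than with its vehicle, and here their median was 0.17 with 1 higher. The study's own lists of genes moved by both inhibitors were chosen on these samples and are no independent evidence of direction: of 94 suppressed genes 58 were lower and 4 higher, with a median of −0.23, and of 30 measured induced genes 1 was lower and 4 were higher, with a median of 0.02.

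**Figure D3:**
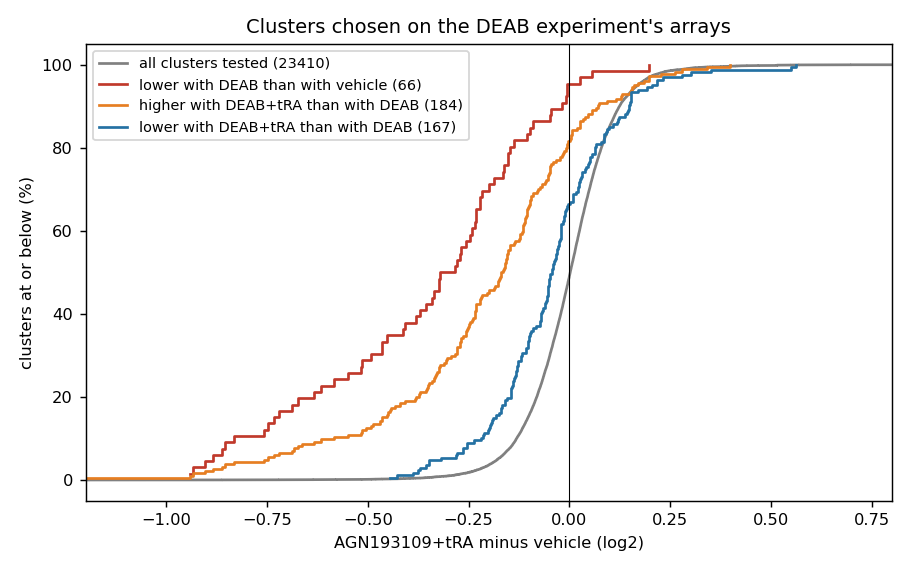
Share of clusters with a difference at or below each value of AGN193109+tRA minus vehicle (log2), for all clusters and for 3 sets chosen on the DEAB experiment's arrays; Dhrs3 and H1f1 lie outside the axis. The curve of the 66 clusters lowered by DEAB crosses 50% near −0.30 and that of all clusters near 0.

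Within the retinoid pathway few members stood away from vehicle. Of 23 enzymes of retinoid synthesis and breakdown, 2 were lower (8.7%) and 1 was higher (4.35%) at an unadjusted p under 0.05. Among all clusters these shares were 3.06% and 1.98%, and counts this small are not read as a result about the list. Its median was 0.02. The members counted were Dhrs3, the reductase Dhrs4 and Aldh1a2, the retinaldehyde dehydrogenase that makes tRA in the embryo. Dhrs4 read 9.78, 9.75 and 9.97 with vehicle and 9.41, 9.55 and 9.65 with AGN193109+tRA, −0.30 (SE 0.08; limma, adjusted p = 0.577), and no arrays overlapped. Aldh1a2 had +0.17 (SE 0.07; limma, adjusted p = 0.968). Cyp26a1 was dim, at 6.03 with vehicle and 5.98 with treatment.

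Among 9 genes of retinoid uptake and binding, 1 was lower at that level (11.1%, against 3.06% of all clusters), which was Stra6. It read 8.60, 8.53 and 9.61 with vehicle and 8.19, 8.22 and 9.28 with AGN193109+tRA, lower within each replicate, with replicate 3 high in both groups. The difference was −0.35 (SE 0.07; limma, adjusted p = 0.290). Of the 6 receptors, Rarg had −0.28 (SE 0.10), Rara −0.04, Rxra −0.11 and Rxrb −0.14, and Rarb was dim at 6.24 and 6.14. No gene of 12 corepressors and coactivators had an unadjusted p under 0.05.

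In the list of 25 genes known from elsewhere to be induced by retinoic acid, 6 were lower (24%) and 0 higher, against 3.06% and 1.98% of all clusters. Below vehicle lay 19 (76%), against 49% of all clusters, and the median was −0.08. The 6 were Dhrs3, Tgm2, Stra6, Ebf1, a B-cell and mesenchymal transcription factor (−0.52, SE 0.13), Bmp7, a growth factor of kidney development (−0.25, SE 0.09), and the pioneer factor Foxa1 (−0.21, SE 0.07). None of these 6 passed adjustment. Dhrs3, Ebf1, Bmp7 and Foxa1 are also among the targets that the study of these samples reported. The list was written with earlier results of these data known, so its share is no independent evidence of direction. Other members of the list lay nearer to vehicle, such as Rarb at −0.10, Hoxa5 at −0.07 and Cyp26a1 at −0.05.

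Most genes of lipid synthesis lay below vehicle. Of 20 genes of cholesterol and fatty acid synthesis, 10 (50%) were lower and 0 higher at an unadjusted p under 0.05, against 3.06% and 1.98% of all clusters. Below vehicle lay 17 (85%), against 49% of all clusters, and the median was −0.18. This list and the gene lists below were written with earlier results of these data known, so their shares are no independent evidence of direction. Mvd, mevalonate diphosphate decarboxylase, read 10.95, 10.61 and 10.82 with vehicle and 10.61, 10.29 and 10.33 with AGN193109+tRA (−0.38, SE 0.07). Each treated array was lower than its own vehicle array, though the highest treated array and the lowest vehicle array had the same level to 2 decimals. Lanosterol synthase Lss had −0.34 (SE 0.06), the sterol sensor partner Insig1 −0.41 (SE 0.11) and squalene epoxidase Sqle −0.28 (SE 0.08), with adjusted p-values of 0.290 to 0.662 in limma. With AGN193109 alone the median of this list was −0.09, and with DEAB+tRA against its own vehicle it was −0.06.

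Interferon-response genes also lay low, by less, in a list likewise written with earlier results of these data known. Of 21, 7 (33.3%) were lower and 20 (95.2%) below vehicle, against 3.06% and 49% of all clusters, 0 were higher, and the median was −0.16. Oasl2, an antiviral oligoadenylate synthase homolog, had −0.38 (SE 0.08), Ifit1 −0.40 (SE 0.13), Irf1 −0.29 (SE 0.07) and Usp18 −0.25 (SE 0.06). Replicates differed: the list's median was −0.08 in replicate 1, −0.27 in replicate 2 and −0.24 in replicate 3, and it was −0.27 without the treated array of replicate 1. Vehicle replicate 2 had the highest level of Oasl2 (12.09 against 11.26 and 11.27) and of Ifit1 (11.50 against 10.53 and 10.55). With AGN193109 alone the list's median was −0.15, and the median step made by tRA was −0.06. With DEAB+tRA against its own vehicle the list stood at −0.15.

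Immediate early genes and feedback genes of the ERK pathway lay above vehicle. Their list was likewise written with earlier results of these data known. Of 23, 7 (30.4%) were higher and 0 lower, against 1.98% of all clusters, 18 lay above vehicle, and the median was 0.14. In replicates 1, 2 and 3 taken singly the list's median was 0.22, 0.06 and 0.17. Fosl1 read 9.56, 10.57 and 10.09 with vehicle and 10.07, 10.89 and 10.64 with AGN193109+tRA, higher within each replicate while the groups overlapped (+0.46, SE 0.09; limma, adjusted p = 0.290). The dual-specificity phosphatases Dusp6 and Dusp5, which switch MAP kinases off, had +0.33 (SE 0.08) and +0.32 (SE 0.07). Among 11 genes of the EGF receptor family, Hbegf, a ligand, had +0.34 (SE 0.07) and Erbb2, a receptor, −0.26 (SE 0.08), with 2 higher and 1 lower in all. The step from AGN193109 to AGN193109+tRA had a median of 0.01 in the immediate early list.

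**Figure D4:**
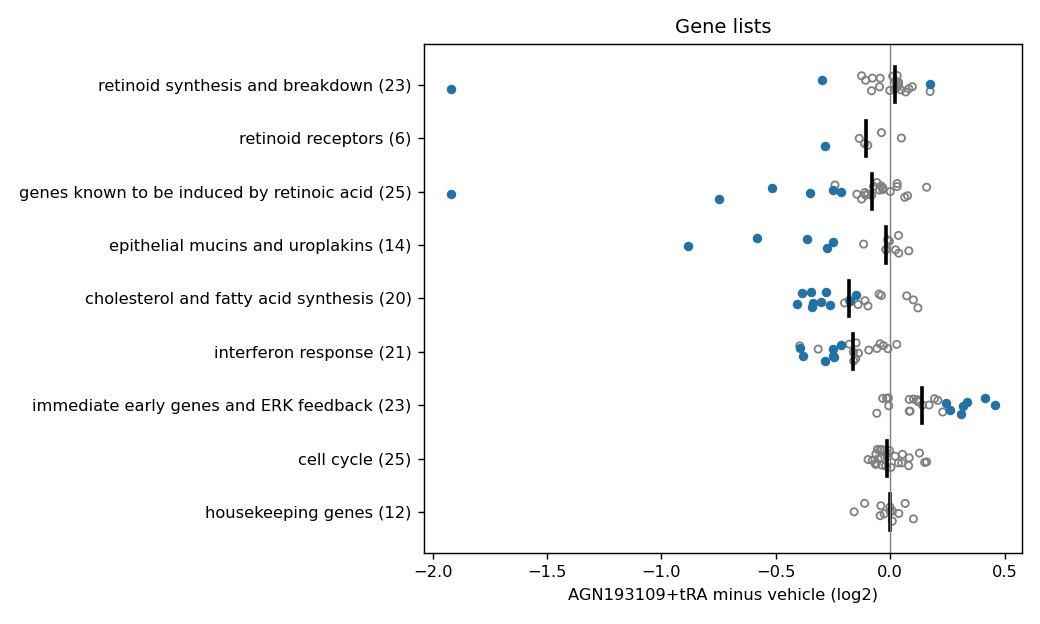
Difference AGN193109+tRA minus vehicle (log2) for the members of 9 gene lists, with the number measured in brackets; filled points have an unadjusted p under 0.05 in limma, open points do not, and black bars are list medians. Cholesterol synthesis has its median at −0.18 and the immediate early genes at 0.14, while housekeeping and cell cycle genes have theirs within 0.02 of 0.

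Other lists were closer to 0 in the median, with single members standing out. Their counts stand beside 3.06% lower and 1.98% higher among all clusters, and a count of 1 or 2 is not read as a result about its list. Of 14 mucins and uroplakins, 5 were lower and 0 higher, among them Muc20, Upk3b, Upk1a (−0.36, SE 0.12) and Psca, a surface antigen of urothelium (−0.25, SE 0.06), with a list median of −0.02. Of 26 genes of ureteric bud and kidney development, 4 were lower and 1 higher, with Wnt4, which drives tubule formation, at −0.39 (SE 0.08) and Etv5, a target of FGF and GDNF signaling, at +0.42 (SE 0.09). Secreted chemokines and defence proteins split, 4 lower and 3 higher of 29, with Lbp, which binds bacterial lipopolysaccharide, at −0.49 (SE 0.09). In TGF-beta and BMP signaling 3 were lower and 1 higher of 23, and Smad3, a signal transducer of TGF-beta, had −0.33 (SE 0.06). Integrins, laminins and adhesion genes gave 3 lower and 1 higher of 20, and squamous differentiation 1 lower and 0 higher of 30 (3.33%, near the share of all clusters), the keratinocyte transglutaminase Tgm1 (−0.38, SE 0.07).

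Antioxidant genes gave 2 lower of 22, glutathione reductase Gsr (−0.32, SE 0.08) and Gstm2 (−0.22, SE 0.07). Of 19 aldehyde dehydrogenases 2 were lower and 1 higher, with Aldh3b1 at −0.35 (SE 0.07), and of 20 hypoxia and glycolysis genes 2 were lower. Principal cell markers gave 2 lower of 15, with the sodium channel subunit Scnn1a at −0.18 (SE 0.06). At the unadjusted level 0 genes of either direction were found among 15 intercalated cell, 12 proximal tubule and 9 thick ascending limb and distal tubule markers, 19 stress-response genes, 25 cell cycle genes and 12 housekeeping genes. Of the clusters standing for genes in these lists none passed adjustment over all clusters; the adhesion list holds Tns1 by another of its clusters (10355534, adjusted p = 0.0762 in limma).

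The same comparison with the other inhibitor was set against this one in a fit of all 18 arrays with replicate blocks inside each experiment. The test is of the difference between the 2 differences from vehicle. It found 33 clusters (0.141%), 32 lower and 1 higher with AGN193109+tRA, by limma at an adjusted p under 0.05. Without the blocks 1 cluster was called, Plekhs1. The inhibitor, the tRA dose (0.2 against 0.01 μM) and the experiment change together between these comparisons, and their parts cannot be told apart.

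Tns1 was at −0.85 with AGN193109+tRA and at +0.24 with DEAB+tRA, each against its own vehicle, a difference of −1.09 (SE 0.08; limma, adjusted p = 0.000176). Its DEAB+tRA arrays read 11.78, 12.56 and 12.63, above their vehicle arrays of 11.54, 12.33 and 12.38 in each replicate. Muc20 read 8.97, 9.63 and 9.94 with DEAB+tRA and 8.92, 9.66 and 9.59 with its vehicle, which do not separate, and the difference between experiments was −1.0 (SE 0.15; limma, adjusted p = 0.0214). For Stra6 the arrays were 9.25, 9.48 and 9.70 with DEAB+tRA against 8.75, 9.19 and 9.14, and the difference between experiments was −0.80 (SE 0.10; limma, adjusted p = 0.00794). Dhrs3 had the largest gap, −1.92 against +1.02, but its difference of −2.94 (SE 0.55) did not pass (limma, adjusted p = 0.0893).

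Some of the genes called here lay at or below vehicle in one experiment and above it in the other. Npr3 was at −0.05 with AGN193109+tRA and at +0.60 with DEAB+tRA (difference −0.65, SE 0.08). Ppbp was at −0.61 and +0.89 (difference −1.50, SE 0.20) and Sprr1a at −0.46 and +1.34 (difference −1.80, SE 0.26). Ptgs2 was the 1 cluster with a higher value, at +0.56 against −0.29 (difference 0.86, SE 0.10). Its DEAB+tRA arrays, 11.49, 10.91 and 10.65, each lay below their vehicle array at 11.75, 11.24 and 10.94. Further members with their difference between experiments were Plekhs1 (−1.35), Csn3 (−1.17), Cpm (−1.16), Klhdc7a (−0.94), Ebf1 (−0.92), Tgm2 (−0.84), Sorcs2 (−0.79), Upk3b (−0.69), Slc37a1, a sugar-phosphate exchanger (−0.63), Mknk2 (−0.54) and Smad3 (−0.48). Leaving out single arrays ended some of these calls: the highest adjusted p in limma was then 0.122 for Muc20, 0.0537 for Ppbp, 0.0814 for Sprr1a, 0.102 for Klhdc7a, 0.238 for Csn3, 0.161 for Ebf1, 0.154 for Slc37a1, 0.196 for Mknk2 and 0.0827 for Smad3. For Tns1, Cpm, Plekhs1, Tgm2, Sorcs2, Npr3, Upk3b, Stra6 and Ptgs2 it stayed under 0.05, and of all these genes Plekhs1 alone was called without the blocks.

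**Figure D5:**
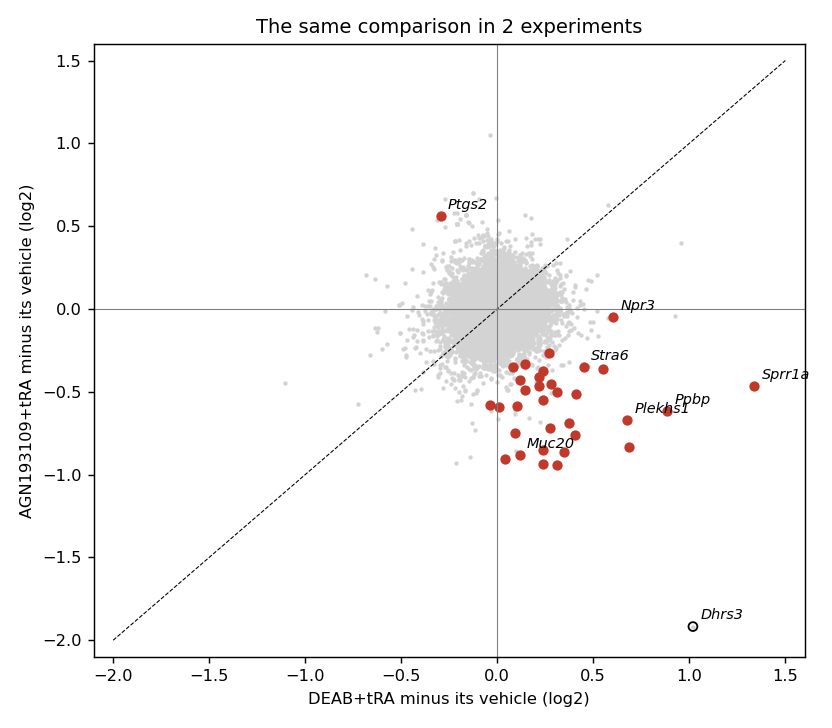
AGN193109+tRA minus its vehicle against DEAB+tRA minus its vehicle (log2) for 23410 clusters; filled red points are the 33 clusters whose 2 differences differ (limma, adjusted p under 0.05), the open point is Dhrs3, and the dashed line marks equal differences. All red points but Ptgs2 lie below the dashed line.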

How the data were processed

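The authors hybridised total RNA of mIMCD-3 cells to Affymetrix Mouse Gene 1.0 ST arrays. The deposited values are log2 signals per transcript cluster, made with RMA in Affymetrix Expression Console. The experiments differ in array median, so levels were compared only within an experiment. Some array descriptions spell the compound AGN193110 or AGN193099, and titles and study design were followed. No label states in words to which experiment a vehicle array belongs; this was read from the form of the short names in the descriptions, which differs between the experiments. Genes were named from the platform annotation, updated through RefSeq (21698 of 21789 clusters with 1 symbol matched), and 12146 clusters without a symbol were left out.

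Differences were tested with limma 3.58.1 (R 4.3.3) on the 9 arrays of the experiment with replicate number as a block (4 residual degrees of freedom) and Benjamini-Hochberg adjustment over 23410 clusters. Same-numbered arrays come from the same of 3 independent biological experiments, and their deviations from group means correlated at 0.198 to 0.645 in 9 pairs, against −0.575 to 0.205 for other pairs. With 3 arrays against 3, a permutation test of a single gene that ignores the replicates cannot go below p = 0.1. Shuffling within replicates allows fewer arrangements, so its lowest possible p is higher. The code was tested on simulated data. The number of arrays limits the precision.

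Genes named were Dhrs3 and Muc20, the study's most changed genes, the 10 largest differences each way that had no overlap, 1 direction in every replicate, an unadjusted p under 0.01 and a level above the 30th percentile, up to 4 members per list by p, and called clusters. The largest differences were taken among clusters with 1 gene symbol. The 27 lists (467 of 499 genes matched) and the members were chosen with earlier results of these data known.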

Additional observations from a re-analysis of the deposited data

Results flagged for a closer look

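The test of the difference between the 2 differences from vehicle, AGN193109+tRA in one experiment and DEAB+tRA in the other, called 32 clusters lower and 1 higher (limma with replicate blocks, adjusted p under 0.05). The genes named from it were higher or lower by these log2 values, each being AGN193109+tRA minus vehicle less DEAB+tRA minus vehicle. Of the 5 Tns1 clusters called, the 3 named had −1.25, −1.21 and −1.09. Sprr1a had −1.80, Ppbp −1.50, Plekhs1 −1.35, Csn3 −1.17, Cpm −1.16 and Muc20 −1.0. Smaller values were those of Klhdc7a (−0.94), Ebf1 (−0.92), Tgm2 (−0.84), Stra6 (−0.80), Sorcs2 (−0.79), Upk3b (−0.69), Npr3 (−0.65), Slc37a1 (−0.63), Mknk2 (−0.54) and Smad3 (−0.48). Ptgs2 had 0.86. The calls of Muc20, Ppbp, Sprr1a, Klhdc7a, Csn3, Ebf1, Slc37a1, Mknk2 and Smad3 were lost when single arrays were left out. The inhibitor, the tRA dose and the experiment differ together, and groups of 3 arrays were not tested for single outlying arrays.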

How the results depend on the processing

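The direction of all 67 clusters of named genes and of the 6 list medians recomputed held under each of the 20 alternatives for which they could be fitted, and the calls did not. Many of these clusters were named for 1 direction in every replicate or for a small p on these arrays. Their held direction is therefore no independent evidence. Clusters lower with AGN193109+tRA than with vehicle (1) numbered 0 with no replicate block, after repeated quantile normalization, with clusters lacking a symbol included and with only the 6 arrays compared, 3 with dim clusters left out, 6 with limma's trend and robust options and 57 with all 18 arrays. Leaving out arrays or replicates gave 0 to 4. Clusters higher (0) numbered 6 with all 18 arrays. Without the replicate block 0 clusters were called in either direction by limma, and 418 had an unadjusted p under 0.05.

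For AGN193109 against vehicle, 87 lower and 20 higher became 15 and 1 without the block, 32 and 1 with clusters lacking a symbol, and 232 and 147 with 18 arrays. The higher ones numbered 33 with dim clusters left out and 36 with trend and robust options. Leaving out arrays or replicates gave 5 to 72 and 0 to 11. For AGN193109+tRA against AGN193109, 18 higher and 1 lower became 5 and 0 without the block, 6 and 0 with clusters lacking a symbol, 80 and 60 with 18 arrays, and 34 and 9 with trend and robust options. The lower ones numbered 4 after repeated quantile normalization, 2 after subtraction of array medians and 4 with dim clusters left out. Leaving out arrays or replicates gave 0 to 14 higher and 0 to 1 lower.

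For the difference between the 2 experiments, 32 lower and 1 higher became 1 and 0 without the block. With clusters lacking a symbol 14 were lower. The higher ones numbered 4 with dim clusters left out and 3 with trend and robust options. Leaving out arrays gave 11 to 32 lower and 1 to 8 higher. Among list medians, leaving out arrays or replicates gave −0.19 to −0.15 for the clusters higher with DEAB+tRA than with DEAB, −0.22 to −0.14 for cholesterol synthesis and −0.27 to −0.14 for the interferon response. Counts at an unadjusted p under 0.05 changed their balance with replicate 1 left out, from 717 lower and 464 higher to 337 and 408. The causes were not tested, beyond the smaller or larger number of arrays or clusters in each fit.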
